A study of Mus musculus with 4 samples.

Results

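The Wnt pathway effectors examined here were 9 mouse genes: Ctnnb1, Tcf7, Lef1, Tcf7l1, Tcf7l2, Axin1, Axin2, Apc and Gsk3b. They were chosen by name, for their place in the pathway, from the 20811 genes to which the authors had assigned accessible intervals. An interval belonged to a gene where the authors' gene list for that interval named it. In all, 201 of 220733 intervals were assigned to the 9 genes, and they merged into 63 of 69759 regions. The measurements came from ATAC-seq, in which a transposase cuts and tags open DNA, on LSK cells (lineage-negative, Sca1-positive, Kit-positive) sorted from mouse bone marrow. Wild-type p53+/+ mice gave the libraries WT 1 and WT 2, and p53R248W/+ mice, with 1 mutant and 1 wild-type p53 allele, gave R248W 1 and R248W 2. Each library was made from 50000 cells, and no other treatment or allele was named. Age, sex and strain were not given in the sources used here, nor whether a genotype's libraries came from separate mice, so their spread may be technical.

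In canonical Wnt signaling, beta-catenin is kept low by a destruction complex of scaffold proteins and kinases, which marks it for degradation. A Wnt ligand at its receptor stalls that complex, and beta-catenin then enters the nucleus and binds TCF/LEF factors at the DNA, where it turns repressed targets on. In the blood system the pathway is known for its part in stem cell self-renewal and in T cell development, where Tcf7 and Lef1 are strongly used.

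The start sites of 8 of the 9 genes were open in every library, and Lef1 was the exception, with the summit of its nearest strong interval inside the gene. Gsk3b, which encodes a kinase of the destruction complex, had one of the highest signals of each library, while Tcf7, which encodes the factor TCF1, had the lowest start-site signal of the set, in the lower part of each list. By the highest bin, both R248W libraries ranked above both WT libraries at the Tcf7l2 start site, an order that 13.8% of all genes had, and at an internal Tcf7l2 start and 1 more site in that gene (12.0% of all regions). By the mean bin, only the internal start kept this order. Of the 38 regions of the 9 genes called in all 4 libraries, 1 had R248W above on both measures and 2 had WT above on both. The share of all regions with either order on both measures is not given, so these counts cannot be set against it. At the start site of Ctnnb1, which encodes beta-catenin, both WT libraries ranked above both R248W libraries by the highest bin, as at 10.7% of all genes, and the groups overlapped by the mean bin. With 2 libraries per genotype, an exact permutation test cannot give a p below 0.33, so no difference between genotypes could pass a threshold, and the groups are described by whether they overlapped.

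The WT lists held 46720 (WT 1) and 62478 (WT 2) intervals and the R248W lists 60385 (R248W 1) and 51150 (R248W 2). WT 2 and R248W 1 thus had the longer lists, 1 from each genotype, and also the higher median signal, 62 in both against 52 in WT 1 and 50 in R248W 2. Each interval carried the authors' highest-bin signal, from 16 upward, whose scaling between libraries is unknown, as is the read depth. Levels were therefore read as percentiles within a library's own list, where 100% is the strongest interval. Values for 4 libraries are given in the order WT 1, WT 2, R248W 1, R248W 2 throughout. In a bulk library, fewer cells with an open site and less opening per cell cannot be told apart. Of the 2 gate genes, Kit had a start-site interval in every library (signal 143, 277, 312 and 172) and Ly6a, which encodes Sca1, had none in any. Start sites were open in all 4 libraries for 8 of 11 stem and progenitor markers, 2 of 11 T cell markers (Cd5 and Bcl11b), 0 of 5 B cell markers, 1 of 7 granulocyte and monocyte markers, 2 of 4 erythroid markers and 3 of 5 stroma and endothelium markers. Of all genes, 60.1% had one in all 4 libraries. The T cell genes Cd3d, Cd3e, Cd3g, Cd8b1, Lck and Trac had no start-site interval in any library, and Cd8a was not among the genes listed. Cd4 and Thy1 had one in some libraries. Among stem and progenitor markers, Mecom and Gata2 had none in any library, and Slamf1 had one in some.

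The sequences at which the start-site results turn are given from RefSeq promoter windows, which run from 250 bases before a start to 50 after it on GRCm38.p6, the build of the files. They show the strongest start site (Gsk3b), a pair at which the genotypes did not overlap (Ctnnb1 and Tcf7l2), that of the feedback gene Axin2 and the weakest (Tcf7). The printed Tcf7 and Axin2 windows lie inside the RefSeq spans of those genes, whose 5′ ends are at 52283383 and 108917828. Capitals mark the bases between the outermost of the 4 libraries' summits, and for Tcf7 between the 3 that fell in the window. Gsk3b lies at chr16:38088751-38089050 (+), Ctnnb1 at chr9:120933150-120933449 (+), Tcf7l2 at chr19:55741560-55741859 (+), Axin2 at chr11:108920099-108920398 (+) and Tcf7 at chr11:52282965-52283264 (-), each printed 5′ to 3′ on its gene's strand.
Gsk3b: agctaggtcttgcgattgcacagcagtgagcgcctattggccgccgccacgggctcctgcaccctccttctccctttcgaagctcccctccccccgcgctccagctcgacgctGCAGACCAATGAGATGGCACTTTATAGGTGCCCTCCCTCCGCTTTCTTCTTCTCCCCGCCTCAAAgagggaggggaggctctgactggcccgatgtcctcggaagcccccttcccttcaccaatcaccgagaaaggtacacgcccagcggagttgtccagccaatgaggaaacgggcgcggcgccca
Ctnnb1: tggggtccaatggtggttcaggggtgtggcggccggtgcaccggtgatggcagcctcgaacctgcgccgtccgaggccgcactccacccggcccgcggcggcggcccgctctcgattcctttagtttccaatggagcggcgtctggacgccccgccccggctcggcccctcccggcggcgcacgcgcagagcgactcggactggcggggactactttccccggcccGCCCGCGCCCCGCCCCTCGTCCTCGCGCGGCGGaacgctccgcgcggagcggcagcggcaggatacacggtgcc
Tcf7l2: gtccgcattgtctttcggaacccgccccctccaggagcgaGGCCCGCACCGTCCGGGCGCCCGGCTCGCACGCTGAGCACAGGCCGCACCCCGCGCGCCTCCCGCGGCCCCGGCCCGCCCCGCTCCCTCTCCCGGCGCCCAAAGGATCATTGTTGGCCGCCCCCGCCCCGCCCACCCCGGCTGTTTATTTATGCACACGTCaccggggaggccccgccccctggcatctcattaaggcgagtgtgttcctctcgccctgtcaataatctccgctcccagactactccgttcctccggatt
Axin2: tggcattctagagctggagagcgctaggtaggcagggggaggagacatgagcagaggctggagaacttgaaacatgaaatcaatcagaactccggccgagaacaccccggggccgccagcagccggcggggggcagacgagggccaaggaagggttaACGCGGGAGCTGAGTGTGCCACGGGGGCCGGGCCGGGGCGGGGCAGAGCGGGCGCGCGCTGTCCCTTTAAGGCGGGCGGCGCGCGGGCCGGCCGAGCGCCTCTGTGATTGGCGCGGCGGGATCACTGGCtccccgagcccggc
Tcf7: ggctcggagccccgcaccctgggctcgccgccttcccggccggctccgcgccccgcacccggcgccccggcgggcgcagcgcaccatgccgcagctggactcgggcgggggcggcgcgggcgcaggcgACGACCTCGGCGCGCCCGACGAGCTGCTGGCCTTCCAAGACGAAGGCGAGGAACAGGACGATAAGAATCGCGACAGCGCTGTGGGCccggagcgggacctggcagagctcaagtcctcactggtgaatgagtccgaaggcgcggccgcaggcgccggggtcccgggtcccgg

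The marked stretch was 33 bases long at Ctnnb1, 65 at Gsk3b, 129 at Axin2 and 161 at Tcf7l2, so in these genes the libraries placed the point of highest signal within a single window. The printed Ctnnb1 window held 46 CG dinucleotides, more than 98.4% of 32851 windows of the same length. The printed Tcf7 window held 45, more than 98.1%, and a second Tcf7 window held 17, more than 68.6%. The second is nearer the authors' Tcf7 start. The WT 1 summit lay 456 bases upstream of that window's start and 480 bases upstream of the authors' start, against 37 for the printed window. The first window of Tcf7l2 and the window of Tcf7l1 held 34 each, that of Axin2 held 31 and that of Gsk3b held 21, against a median of 7 over all windows. The Lef1 windows held 18, 21, 8 and 5, the second Tcf7l2 window held 7 and the second Ctnnb1 window held 51. The printed Tcf7 and Ctnnb1 windows were thus alike in CG, and the start-site intervals of these genes were far apart in signal. This rests on 1 pair and on the Tcf7 window chosen, and neither Tcf7 window is at the 5′ end of the gene's RefSeq span. The 7 genes with a window had 13 windows in all, some of them at internal starts. The TCF/LEF word CTTTGAT and its variants (CTTTGAA; also CTTTGTT; also CTTTGTA), searched on both strands, occurred in 2 of the 13, at internal starts of Lef1 and Tcf7l2, and in 16.9% of all windows. The GATA words AGATAA and TGATAA occurred in 2 of the 13, the same windows, against 18.6% of all, and the ETS word CCGGAAG in 1, a Tcf7 window, against 8.86%.

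Among all genes, 60.1% had a start-site interval, with its summit within 1000 bases of the start, in all 4 libraries, and 8 of the 9 effector genes (88.9%) did. The median percentile of these 8 was 84.9 and 85.9 in the WT libraries and 86.9 and 83.4 in the R248W libraries. Over all genes with such intervals the medians were 83.2, 86.3, 86.2 and 84.1, so the effector genes sat at the level of a typical open start site. The median difference, R248W minus WT, was 0.516 percentile points for the 8 genes and 0.255 for all genes, whose 10th and 90th percentiles were -3.29 and 6.04. Both R248W percentiles were above both WT percentiles at 2 genes, Tcf7l2 and Axin1, where 13.8% of all genes had this order, and both WT percentiles were above at 1 gene, Ctnnb1, where 10.7% did. The other 5 overlapped. The exact permutation p, two-sided, ranged from 0.333 to 1 for the 8 genes, and from 0.762 to 1 after Benjamini-Hochberg adjustment. With 1 library left out the order is met more often: R248W was above at 3 of 8 genes without WT 1 (18.1% of all genes), 5 without WT 2 (54.7%), 4 without R248W 1 (23.5%) and 5 with R248W 2 omitted (40.9%). WT was above at 2 without R248W 1 (36.2%) and at 1 in each other case (15.8% to 43.5%). With the mean-bin signal in place of the highest bin, both Tcf7l2 and Ctnnb1 overlapped, and Gsk3b had R248W above. By that measure, 15.2% of all genes had R248W above and 10.3% had WT above.

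**Figure D1:**
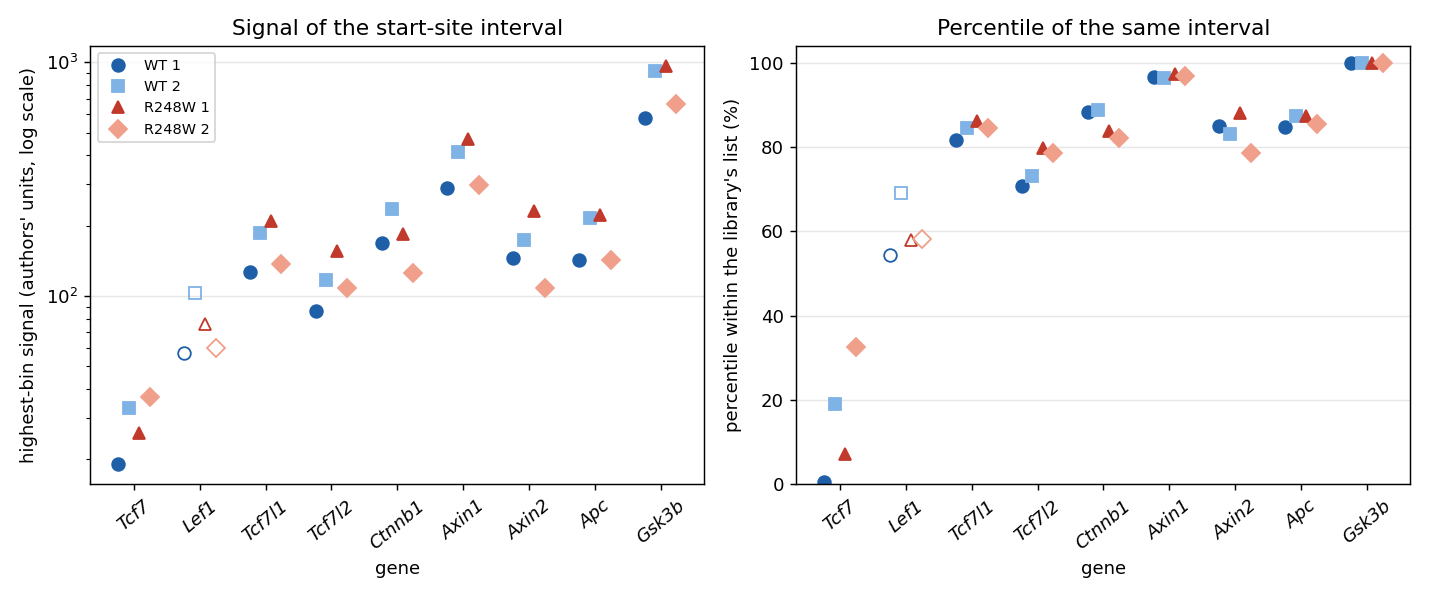
Signal of each gene's start-site interval in the 4 libraries, as the authors' highest-bin signal on a log axis (left) and as its percentile within the library's list (right); open symbols show Lef1, whose summit lies over 1000 bases inside the gene. Gsk3b is at the top in every library and Tcf7 at the bottom. By percentile (right), both R248W symbols lie above both WT symbols at Tcf7l2 and below them at Ctnnb1. By signal (left), the genotypes overlap at both genes.

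Gsk3b encodes glycogen synthase kinase 3 beta, which phosphorylates beta-catenin and so marks it for destruction. The gene spans 38089001 to 38246084 on chromosome 16, and its start-site interval was also assigned to BC031361. The highest-bin signal there was 580 and 917 in the WT libraries and 966 and 666 in the R248W libraries. These were percentiles of 99.92, 99.88, 99.91 and 99.96, a difference between genotypes of 0.0387 points. They were the highest of the set in every library, ahead of Axin1. Summits lay 137 bases upstream of the start in 3 libraries and 73 in R248W 2. Inside the gene, an interval 42967 bases from the start had 128, 177, 177 and 118, and another, 150903 bases away and also assigned to Nr1i2, had 109, 193, 175 and 140. A weaker one at 108423 bases had 40, 40, 50 and 37. All 3 were called in every library, with overlapping genotypes in the highest bin. In the mean bin, both R248W percentiles were above at the start and at 108423 and 150903 bases, and both WT percentiles at 42967 bases. The share of all regions with either order in the mean bin is not given, here or for the regions below.

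Apc and the axins are the scaffolds of the destruction complex. Apc, a tumor suppressor of the gut, lies on chromosome 18 (34220297 to 34322190), and its start-site interval was shared with Gm10548. The signal there was 143 and 215 in the WT libraries and 222 and 143 in the R248W libraries, with percentiles of 84.7, 87.3, 87.4 and 85.5. The groups overlapped, with a difference of 0.427 points. All 5 Apc regions were called in every library, and the summits at the start lay 56 bases upstream of it in each. The strongest distal interval, 154, 278, 280 and 144, was shared with Srp19, a gene past the end of Apc, and lay 110056 bases from the Apc start. Within Apc, the interval 26600 bases from the start had 26, 42, 43 and 45, or percentiles of 10.3, 31.3, 32.3 and 43.8. R248W was above WT there in the highest bin by 17.2 points, a gap set mostly by the low WT 1 value, and the groups overlapped in the mean bin. The other Apc intervals, at 38312 and 41960 bases, had 41, 84, 96 and 42, and 29, 57, 37 and 29, and overlapped, though at 41960 bases both WT libraries were above in the mean bin.

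Axin1, the axin made in most cells, had the second strongest start site of the set (chromosome 17, region 26137790 to 26139788). Its signal was 289 and 413 in the WT libraries and 472 and 298 in the R248W libraries. The percentiles were 96.6 ± 0.154 (SD, n = 2) in WT and 97.2 ± 0.294 in R248W. The groups did not overlap, but the difference was 0.606 points (exact permutation p = 0.333), and 57.5% of all genes had a lower one. They overlapped on the mean-bin signal, on the log2 scale and with the same number of intervals per library. An interval 29474 bases into Axin1 had 154, 231, 206 and 99, with percentiles of 86.4, 88.6, 86.0 and 76.2. There both WT libraries were above, with an R248W minus WT difference of -6.33 points, set mostly by R248W 2, and on the mean-bin signal the groups overlapped. Further out, 64770 bases away, an interval assigned also to Rgs11, Arhgdig, Itfg3 and Pdia2 had 30, 50, 44 and 37, with R248W above in the mean bin alone. Another beside it was called in WT 2 (35) and R248W 2 (37) alone.

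Axin2 is both a scaffold and a widely used readout of the pathway, since beta-catenin with TCF/LEF factors switches it on. Its start-site region (chromosome 11, 108919692 to 108922495) had a signal of 145 and 174 in the WT libraries and 231 and 108 in the R248W libraries. The highest and the lowest value were both from R248W, and the percentiles of 85.0, 83.1, 88.1 and 78.7 overlapped. Their difference was -0.674 points, from 84.1 ± 1.38 (SD, n = 2) in WT to 83.4 ± 6.68 in R248W. The intervals were 1410, 2803, 2478 and 1972 bases long. A single further region, 4995 bases into the gene, was called in WT 2 (48) and R248W 1 (65), the libraries with the longer lists. Axin2 was the only effector gene without a distal interval in all 4 libraries.

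Ctnnb1 encodes beta-catenin, the protein that the complex controls. Its start-site region (chromosome 9, 120932740 to 120936030), also assigned to 4930593C16Rik, had a signal of 168 and 236 in the WT libraries and 185 and 125 in the R248W libraries. In percentiles these were 88.2, 88.9, 83.8 and 82.3, so both R248W libraries ranked below both WT libraries. The mean was 88.6 ± 0.472 (SD, n = 2) in WT and 83.0 ± 1.10 in R248W, a difference of -5.52 points (exact permutation p = 0.333, the smallest possible). Of all genes, 5.44% had a lower difference. In the mean bin the percentiles were 73.2, 76.1, 69.2 and 82.6 and overlapped, R248W 2 being the highest. The R248W 2 interval was 1420 bases long, against 3216, 2647 and 3077 in the others, and the part of interval length in the mean bin was not tested. Past the gene's end, in a stretch also assigned to Ulk4, an interval 28744 bases from the start had 64, 49, 45 and 33. Both WT libraries were above there too, at a difference of -19.1 points, and also in the mean bin. Its neighbor at 27272 bases had 46, 101, 91 and 52 and overlapped.

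The 4 TCF/LEF factors, the DNA-binding end of the pathway, held 44 of the 63 regions. Tcf7l2, the longest gene at 191863 bases, had 15 regions, Tcf7l1 had 13, Lef1 had 9 and Tcf7 had 7. The other 5 genes had between 2 and 5 each.

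**Figure D2:**
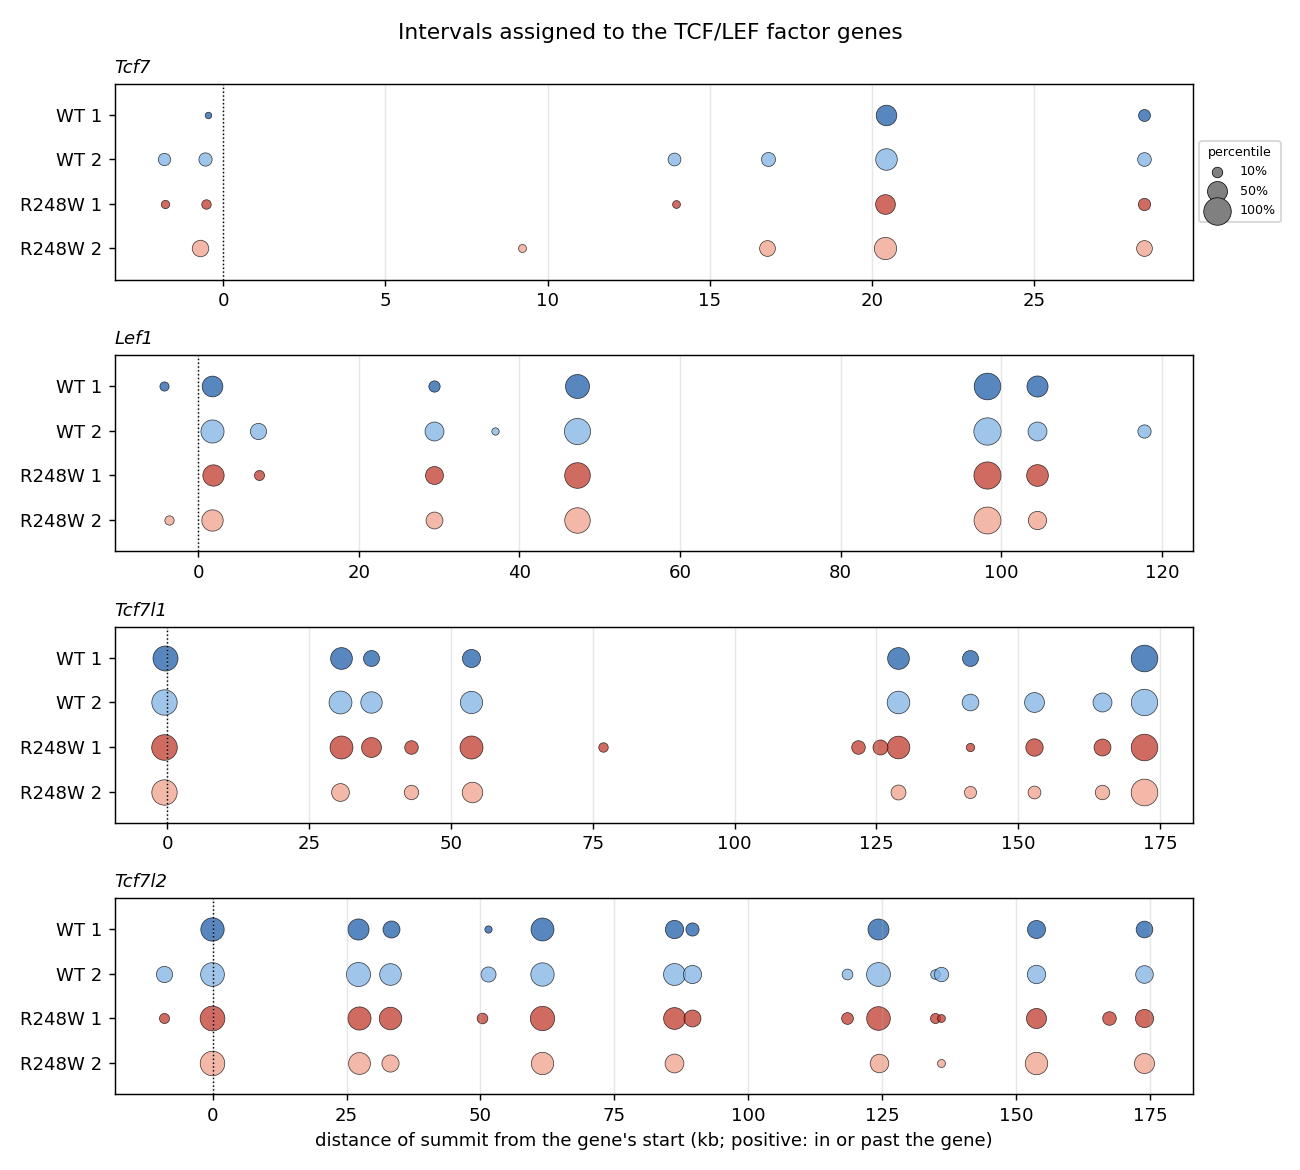
Intervals assigned to Tcf7, Lef1, Tcf7l1 and Tcf7l2 in each library, by the distance of the summit from the gene's start in kb; circle area grows with the percentile within the library's list. The larger circles stand in all 4 rows, Tcf7 has its largest circle inside the gene, and Lef1 has none within 1000 bases of its start.

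Tcf7l2 encodes TCF4, a main partner of beta-catenin outside the lymphoid lineage. Its start-site region (chromosome 19, 55740263 to 55745256) had a signal of 86 and 117 in the WT libraries and 155 and 108 in the R248W libraries. The percentiles were 70.7, 73.1, 79.8 and 78.7, with both R248W libraries above both WT libraries. Means were 71.9 ± 1.71 (SD, n = 2) in WT and 79.2 ± 0.832 in R248W, a difference of 7.32 points (exact permutation p = 0.333, the smallest possible), and 92.2% of all genes had a lower one. In the mean bin the percentiles were 82.4, 63.6, 71.6 and 79.9 and overlapped. Interval length there was 1549, 4566, 4373 and 1486 bases, long in the libraries with the longer lists, and its part in the mean bin was not tested.

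The same order appeared deep inside Tcf7l2, 153710 bases from the start, at a region (55894949 to 55896153) that overlaps an internal RefSeq start. Its signal was 43 and 52 in the WT libraries and 63 and 70 in the R248W libraries, and here R248W 2, a library with a shorter list, was the highest. In percentiles it was 41.1 ± 1.25 (SD, n = 2) in WT and 57.6 ± 10.1 in R248W, a difference of 16.6 points (exact permutation p = 0.333). The mean bin gave the same order, at 37.2, 37.3, 52.7 and 56.5. Among the regions called in all 4 libraries, this was the only one of the set with R248W above on both measures. WT was above on both measures at 2 regions, 1 past the end of Ctnnb1 and 1 in Tcf7l1. The share of all regions with either order on both measures is not given. Summits of the internal Tcf7l2 region lay 199 to 231 bases downstream of the RefSeq start. The window of that start, at chr19:55895071-55895370 (+), is printed 5′ to 3′ with its TCF/LEF word in capitals.
Tcf7l2 internal start: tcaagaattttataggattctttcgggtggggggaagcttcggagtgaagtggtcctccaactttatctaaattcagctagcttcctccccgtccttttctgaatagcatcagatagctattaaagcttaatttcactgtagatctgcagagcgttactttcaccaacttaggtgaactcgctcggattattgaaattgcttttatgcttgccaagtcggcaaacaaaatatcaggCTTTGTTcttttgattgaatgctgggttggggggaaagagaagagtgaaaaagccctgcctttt

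The window held 7 CG dinucleotides, the median of all windows, against 34 at the gene's first start. Another Tcf7l2 region, 173806 bases from the start, had 38, 48, 51 and 51, with R248W above by 9.88 points in the highest bin and overlapping groups in the mean bin. The interval 61534 bases into the gene, the strongest distal one of Tcf7l2 in WT 1 and R248W 1, had 79 and 108 in the WT libraries and 138 and 69 in the R248W libraries, and overlapped. So did that at 27182 bases, with 60, 126, 105 and 64, and that at 124254 bases, with 59, 120, 118 and 44. Of the 8 Tcf7l2 regions in all 4 libraries, R248W was therefore above in 3 by the highest bin (12.0% of all regions) and in 1 of those 3 by the mean bin, and WT was above in 0 by the highest bin (8.56%).

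Tcf7l1 encodes TCF3, a mostly repressive member of the family. Its start-site interval (chromosome 6, region 72787925 to 72790225) had 126 and 186 in the WT libraries and 209 and 137 in the R248W libraries, with percentiles of 81.8, 84.5, 86.3 and 84.4. The groups overlapped by a narrow margin, between WT 2 and R248W 2, and differed by 2.24 points. Within the gene, intervals 30556, 53564 and 128796 bases from the start were called in every library. The first had 66, 98, 101 and 41, the second 43, 87, 103 and 54, and the last 66, 92, 95 and 33, each with overlapping groups. An interval shared with Tgoln1 and Retsat, 172092 bases from the start and past the gene's end, was the strongest at 224, 283, 314 and 228.

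The only effector region that both libraries of a genotype shared, and that the other genotype lacked, lay in Tcf7l1, 43004 bases from the start (72745413 to 72746333). It was called in R248W 1 at a signal of 34 and in R248W 2 at 32, both low in their lists, and in no WT library. That is 1 of 63 regions (1.59%), against 1.23% of all regions, and 0 of 63 were called in both WT libraries alone, against 0.827%. The region was missing when each list was limited to its 46720 highest intervals. The count with R248W alone was 4 if WT 2 was left out (10.3% of all regions), 2 if R248W 1 was (3.65%) and 5 if R248W 2 was (6.73%). That with WT alone was 2 if WT 1 was left out (8.18%) and 3 if R248W 1 was (5.81%), so single libraries set these counts. Another Tcf7l1 region, 141420 bases from the start, was called in all 4 libraries at 36, 44, 24 and 28. There both WT libraries were above, at a difference of -22.1 points, and in the mean bin as well. Tcf7l1 had 7, 9, 13 and 9 intervals in the 4 libraries (exact permutation p = 0.667), and 3 of its regions were called in R248W 1 alone.

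Tcf7 encodes TCF1, the factor of early T cell commitment. Its start-site interval (chromosome 11, region 52282464 to 52283792), also assigned to A630014C17Rik, had only 19 and 33 in the WT libraries and 26 and 37 in the R248W libraries. The percentiles ran from 0.557 in WT 1 to 32.6 in R248W 2 and overlapped, at 9.81 ± 13.1 (SD, n = 2) in WT and 19.9 ± 18.0 in R248W. Summits lay 480 to 725 bases upstream of the authors' start. Inside the gene, 20395 bases from the start, a stronger interval with no other gene assigned had 56, 78, 61 and 68, or percentiles of 53.6, 59.6, 49.0 and 63.6. One more at 28395 bases, also assigned to Skp1a, had 28, 34, 31 and 35. The other 4 Tcf7 regions were called in 1 or 2 libraries each.

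Lef1, the other factor with a known part in lymphocytes, had no interval with a summit within 1000 bases of its start. Its nearest strong interval (chromosome 3, region 131109335 to 131113619) had summits 1689 to 1849 bases into the gene. It was 2838, 2307, 4284 and 2944 bases long, and its edge reached the first RefSeq windows only in R248W 1 and R248W 2. WT 1 and R248W 2 were close in length, and the share of all genes with such a split is not given. The signal was 57 and 103 in the WT libraries and 76 and 60 in the R248W libraries. In percentiles these were 54.4, 69.2, 57.9 and 58.3, so the groups overlapped. Summits lay 471 to 631 bases upstream of an internal RefSeq start. The strongest Lef1 interval was 98201 bases into the gene (131207548 to 131209525), with 223, 564, 490 and 267, at percentiles of 93.4, 98.6, 97.7 and 95.8. Next came one at 47161 bases, with 98, 250, 209 and 142. Those at 104457 and 29369 bases had 60, 55, 81 and 43, and 27, 55, 50 and 38, and in the mean bin WT was above at the former and R248W at the latter. Lef1 thus combined no start-site interval with one of the strongest distal intervals of the set, and no region of it separated the genotypes in the highest bin.

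By start-site percentile over the 4 libraries, the genes nearest to Tcf7 were Ttll8 (sum of absolute differences 10.7 points) and Rgs6 (11.4). Nearest to Tcf7l1 were Vps37c (0.612) and Fam103a1 (1.31), and nearest to Tcf7l2 were Ltbp2 (3.27) and Spire2 (3.38). Lef1 could not be ranked, as it had no start-site interval.

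Across the set, 38 of the 63 regions (60.3%) were called in all 4 libraries, against 58.0% of all merged regions. Both R248W percentiles were above both WT percentiles in 5 of the 38 (13.2%; 12.0% of all such regions), and both WT percentiles were above in 4 (10.5%; 8.56%). The remaining 29 overlapped. Both shares were near those of all regions. Summits of the 4 libraries fell within 100 bases of each other in 30 of the 38 (78.9%), against 81.3% of all. By each gene's highest distal interval, 8 genes had one in every library, R248W was above in 0 (12.8% of all genes) and WT in 1, Axin1 (8.48%). The highest distal interval outranked the start site in every library at Tcf7, Tcf7l1 and Apc, where 32.3% of all genes with both kinds had this order. At Tcf7l1 and Apc that interval was the one shared with a neighboring gene, and at Tcf7 it lay within the gene.

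**Figure D3:**
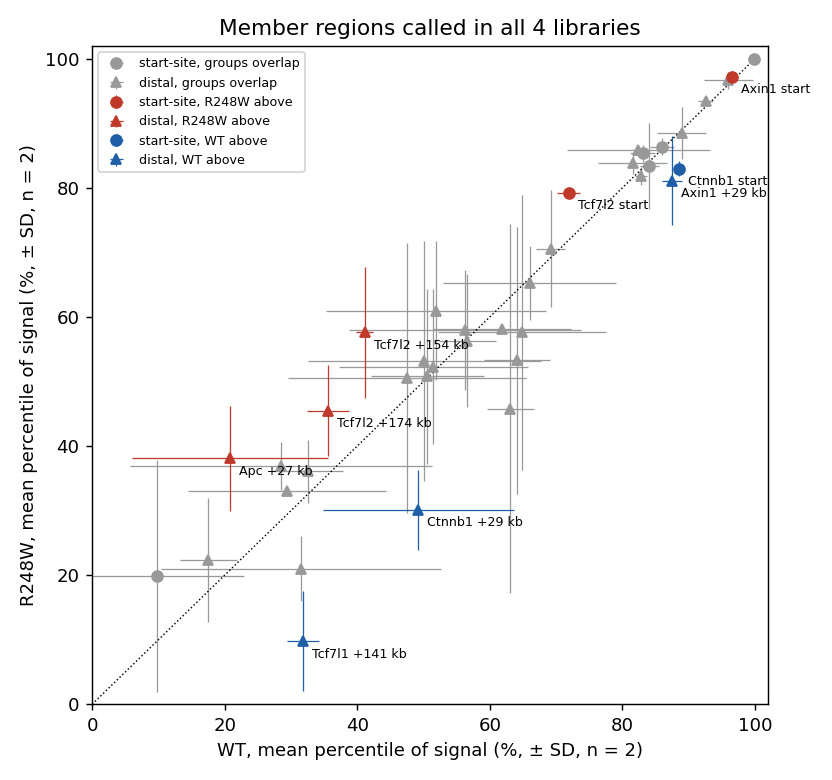
Mean within-library percentile of each of the 38 effector regions called in all 4 libraries, WT against R248W, with bars of ± 1 SD (n = 2 libraries) and the line of equality; circles are start-site and triangles distal regions, red where both R248W values exceed both WT values and blue for the opposite. Most regions lie near the line, 3 of the 5 red points are Tcf7l2, and bars are wide below about the middle of the scale.

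The 25 regions not called everywhere had no signal above 76. WT 1 called 4 of them, WT 2 called 18, R248W 1 called 19 and R248W 2 called 8, so the libraries with the longer lists called most of them, in either genotype. The most frequent pattern among them was WT 2 with R248W 1, at 8 regions. In total, 42, 56, 57 and 46 intervals belonged to the 9 genes, or 0.0899%, 0.0896%, 0.0944% and 0.0899% of each list. R248W libraries had on average 2.5 more (exact permutation p, two-sided, 0.667).

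**Figure D4:**
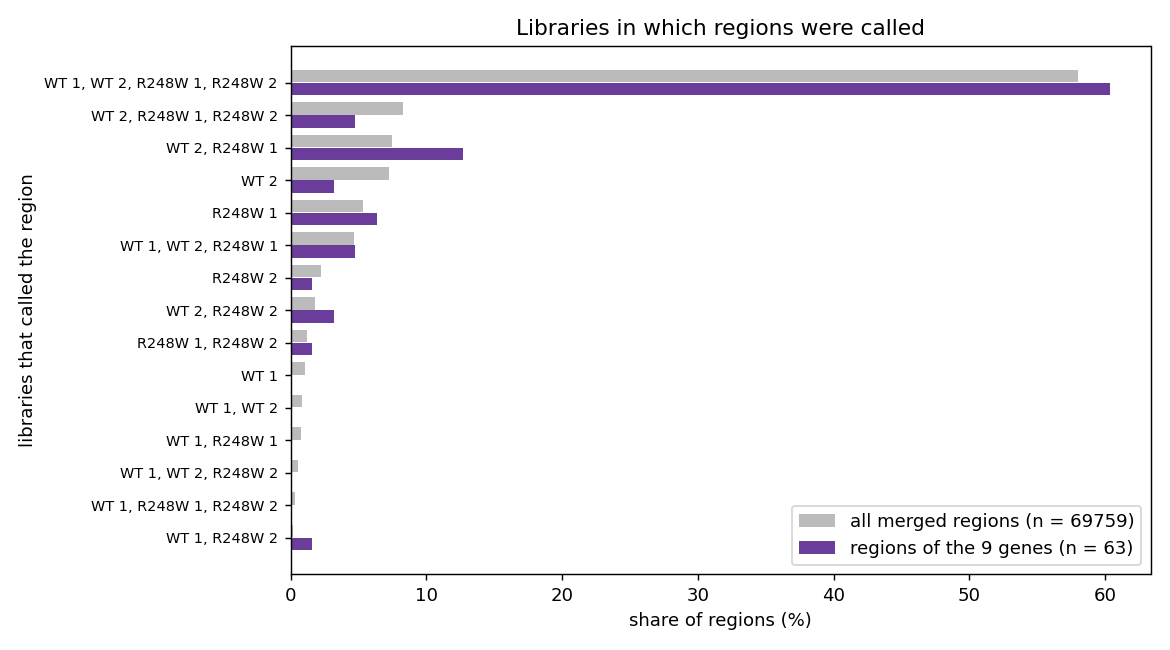
Share of regions, in percent, by the set of libraries that called them, for all 69759 merged regions (grey) and the 63 effector regions (purple). Calls in all 4 libraries lead in both, at 58.0% and 60.3%, and among partial calls of the effector regions the pair WT 2 and R248W 1 leads.

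Around these effectors, 6 lists of other pathway genes (123 genes without repeats) were read the same way. Start sites were open in all 4 libraries for 83 of them (67.5%; 60.1% of all genes), but unevenly by role. Receptors and co-receptors led with 18 of 19, Lrp5 being the one left out, and ligands came last with 8 of 23. Between them were cytoplasmic transducers (19 of 23), nuclear cofactors (17 of 22), target genes (17 of 24) and secreted and membrane inhibitors (9 of 17). Among the 83, both R248W percentiles were above in 18 (21.7%; 13.8% of all genes) and both WT percentiles in 8 (9.64%; 10.7%). By list, R248W was above and WT above in 4 and 0 ligands, 6 and 2 receptors, 0 and 0 inhibitors, 4 and 3 transducers, 1 and 2 cofactors, and 3 and 1 targets.

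**Figure D5:**
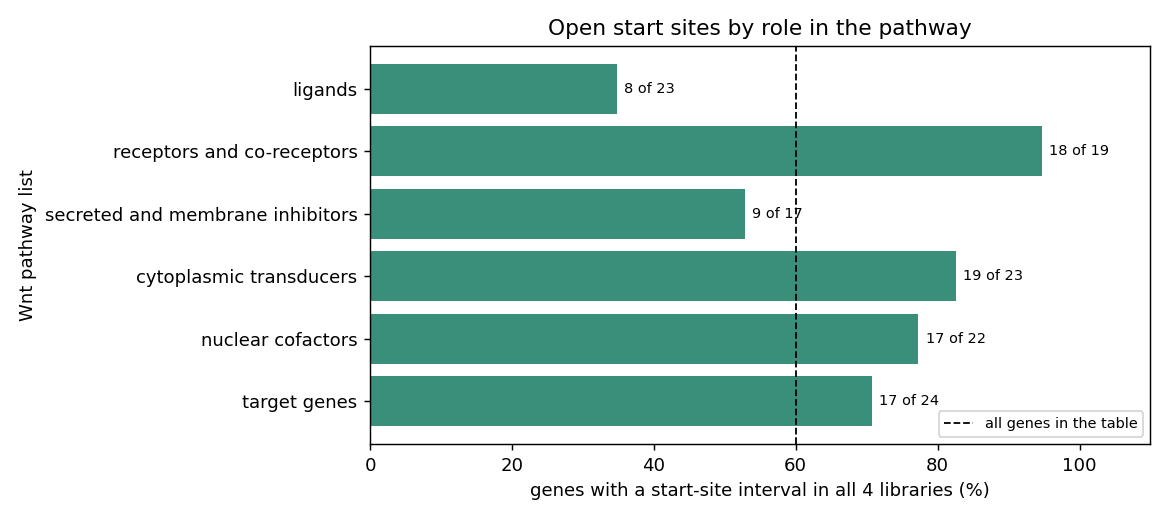
Share of genes in each Wnt pathway list, in percent, with a start-site interval in all 4 libraries; the dashed line is the share of all genes in the table (60.1%). Receptors stand highest at 18 of 19 and ligands lowest at 8 of 23.

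Among the strongest start sites by role were those of the corepressor genes Tle4 (600 and 939 in the WT libraries and 989 and 594 in the R248W libraries) and Tle1 (487, 965, 865 and 504). The R-spondin receptor gene Lgr4 had 406, 707, 761 and 495. Among transducers Usp34, which encodes a deubiquitinase acting on axin, had 376, 615, 590 and 389, and Fbxw11, which encodes a ubiquitin ligase subunit for beta-catenin, had 342, 554, 563 and 418. Both targets named by rank, Jun (358, 706, 742 and 423) and Id2 (274, 440, 531 and 314), encode transcription regulators. The frizzled receptor gene Fzd7 had 196, 263, 324 and 158, and the inhibitor genes Apcdd1 and Znrf3 had 199, 338, 299 and 232, and 185, 231, 265 and 142. Ligand genes were far lower even at their strongest, Wnt11 with 65, 87, 91 and 65 and Wnt2b with 50, 57, 67 and 52. These levels are of start-site intervals and say nothing of transcript amounts.

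Of the 123 genes, 6 had a region called in both R248W libraries and in no WT library (3.68% of all genes had one) and 4 had one in both WT libraries alone (2.33%). Those of R248W were Wnt3a and Wnt9a (1 shared interval, with 34 in R248W 1 and 29 in R248W 2), Kremen2 (70 and 55, with its summit 1115 bases upstream), Siah1a (25 and 26), Ephb2 (29 and 29) and Sox9 (29 and 24, 190 bases from the start). Except at Kremen2 they were near the bottom of the lists. Those of WT were Dkk3 (35 in WT 1 and 28 in WT 2), Dkk4 (18 and 33), Rnf43 (34 and 26) and Gsk3a, which encodes the sister kinase of Gsk3b. The Gsk3a interval was the only strong one, with 236 in WT 1 and 397 in WT 2, and lay 1477 bases upstream of the start in WT 1.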

How the data were processed

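The deposited table lists accessible intervals called separately in each ATAC-seq library, with the authors' highest-bin and mean-bin signal and the genes they assigned to each. The submitters' processing notes name MACS 1.4.2 and mm10. For the aligner, read filters, shift for transposase insertion, depth and signal scaling, the entry is: not given in the sources used here. Therefore the signal was used only within a library's list and no count test was made. Lengths equaled end minus start, so starts may count from 0.

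Intervals sharing at least 1 base were merged across libraries (bedtools 2.31.1). A percentile is an interval's rank by signal within its library, ties averaged, as a share of the list, computed by python 3.11.15 with pandas 2.3.3 and numpy 2.4.6, and matplotlib 3.10.9 drew the figures. Libraries were grouped by labelled genotype and compared by two-sided exact permutation tests (smallest p 0.33). The merging and the calls in 1 genotype alone were checked on simulated intervals, and the permutation tests on short made-up values. All members, their start-site regions, their 3 strongest distal regions and regions of 1 genotype were named. Of the other lists, the 2 strongest start sites per role and genes with regions of 1 genotype were named. Regions whose genotypes did not overlap, and a few more distal ones, were named after their values were seen. Members and lists were chosen with earlier results of these data known. Sequences and internal starts came from RefSeq tables (GRCm38.p6), matching 7 of 9 genes. Sequences of distal regions and Axin1 and Apc windows were not used here. Alternatives were other start-site windows (500 and 2000 bases), list lengths, overlaps, scales, left-out libraries and a replicate block.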

Additional observations from a re-analysis of the deposited data

How the results depend on the processing

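The lists give no value where no interval was called, and depth is unknown, so a missing call does not show closed chromatin, and weak intervals depend on list length. Restricting each list to its best 50% left 17 of the 38 effector regions called in all 4 libraries, and the share of all regions left is not given. Of 32 effector regions then, 1 was called in R248W alone (1.07% of all regions) and 0 in WT alone (0.723%). The region in R248W alone was not the same one as before but the internal Tcf7l2 start (chromosome 19, 55894949 to 55896153). With the 46720 highest intervals of each list, 0 regions were called in R248W alone (1.49% of all regions) and 1 in WT alone (1.39%). The latter was a Tcf7l2 region (55792189 to 55793816) that R248W 1 also called in its full list. With 1 library left out, 1 to 5 regions were called in R248W alone and 0 to 3 in WT alone, where 1.6% to 10.3% and 1.41% to 8.18% of all regions were. Genes with R248W above at the start site numbered 3 to 5 of 8, where 18.1% to 54.7% of all genes had this order, and genes with WT above 1 to 2, where 15.8% to 43.5% did. With the mean-bin signal these counts were 1 and 0, where 15.2% and 10.3% of all genes had these orders. The cause was not tested. The other counts, of effector start sites (6 to 9) and of pathway start sites (62 to 98), stayed within 1.5 times. The difference in intervals per library ran from -4.5 to 9.5 and the median distal difference from -3.24 to 1.93 percentile points, so their signs depend on single libraries. Over 234 recomputed values of single genes, 16 moved by more than the spread and 51 changed sign. Same-numbered libraries did not deviate together (correlation -0.0199 over 40492 regions). With 2 libraries per genotype, this value cannot show whether libraries were prepared in pairs, which the labels do not state. With the replicate number as a block, the differences were 2.5 intervals, 0.516 points at start sites and -0.407 at distal intervals, as without it, and no call changed, the smallest possible p being 0.5.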
